A study of Mus musculus with 10 samples.

Results

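The genes described here are 34 regulators, outside the BAF chromatin remodelling complex, whose loss of function is linked to autism or intellectual disability. They were listed by mouse symbol, with earlier results of these data known. All 34 were found among the 18444 genes of the table. Their products have nuclear, translational or cytoskeletal roles, and they were placed in 5 role groups of 5 to 9 genes. Whole brains were taken on postnatal day 3 (P3) from male mice of the strain C57BL/6N, 5 heterozygous for *Arid1b* (HT, *Arid1b*+/-) and 5 wild type (WT), with poly-A mRNA sequenced in 1 library per mouse. *Arid1b* encodes a subunit of BAF, and the HT mice carry 1 germline allele in which exon 5 was targeted with Cas9 nickase, while the WT mice carry no edited allele. All mice came from heterozygous fathers and WT mothers, so the edited allele was paternal and was present in every cell type. The comparison asks whether loss of 1 *Arid1b* allele was accompanied by a different transcript level of other genes of the same disorders. Values are normalised read counts, that is, estimated reads of a gene divided by a factor for the depth of the library, and positions are on GRCm38.

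Genes of this kind fall into a few classes that act at different steps between chromatin and the synapse. DNA-binding proteins and their cofactors set which genes are transcribed in newborn neurons, translation and ubiquitin regulators set how much protein is made and kept, and kinases and GTPase regulators control growth through the RAS, RAC and mTOR pathways. Ankyrins, adhesion proteins and secreted guidance proteins then build the axon initial segment, the synapse and the layers of the cortex. Many of them are dosage sensitive in humans, so that the level of transcript is itself of interest.

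*Arid1b* had normalised counts of 3386, 3155, 3597, 3429 and 3108 in WT 1 to WT 5 and 2372, 2230.2, 2253, 1505 and 2142 in HT 1 to HT 5. The groups did not overlap, and HT mice averaged 63.0% of the WT level, with a log2 fold change of -0.68 ± 0.11 (SE), a limma adjusted p of 0.390 and an exact permutation p of 0.00794, the lowest value possible with 5 libraries against 5. With HT 4 left out these became -0.57 ± 0.050 and a limma adjusted p of 2.52e-04. Totals ran from 27243506 to 29032442 normalised counts per library. HT 4 stood apart from the other 9 libraries, with a sample weight in limma of 0.171 against 0.858 to 1.52, and with long transcripts low and short transcripts high, so log2 fold changes below are given with and without it. Every marker of the 12 brain and attached cell types listed was above 0 in every library, and 0 of 72 passed the limma test with or without HT 4. The summed level of 6 choroid plexus markers did not overlap between the groups, at 6826 to 9753 in HT and 10347 to 14058 in WT (exact permutation p = 0.00794). *Ttr* made up most of this sum, with a mean of 9649 of 10479.9, and the other 5 markers each overlapped between the groups. The log2 fold changes of those 5 were all below 0, from -0.56 (*Folr1*) to -0.087 (*Otx2*). Of the 6 markers, 3 had an unadjusted limma p under 0.05, against 3.41% of all genes. Without HT 4 it was 4 of the 6, against 8.4% of all genes. The part of choroid plexus tissue in the values below was not tested. In whole brain, fewer cells of a type and less RNA per cell cannot be told apart.

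The 34 genes shared features that their choice did not use. Their longest annotated transcripts had a median of 7275 bases, against 3271 over all genes tested, and 33 of 34 were longer than that median. The exception was *Katnal2* at 2039 bases, and the longest was *Ank2* at 14305 bases. The decile of longest transcripts, from 6667 bases, held 20 of the 34. Gene bodies were long too, with a median span of 147 kb against 21.9 kb. RefSeq promoter windows on GRCm38.p6, the 250 bases before the most upstream start that the promoter table gives, were matched for 26 of the 34 by symbol. Of these windows 13 lay wholly upstream of the gene as GENCODE places it, and the other 13 overlapped the gene or lay inside it. The windows were rich in CG. Their median was 21 CG dinucleotides and 68.4% GC, against 6 and 52.0% over 27025 genes, and 23 of 26 (88.5%) had at least 10 CG dinucleotides, against 38.2%. That held for 11 of the 13 windows upstream of the gene and 12 of the other 13. On either strand, the GC box GGGCGG was found in 65.4% of the 26 windows and 33.0% of all windows, CCAAT in 26.9% and 34.5%, TATAAA in 3.85% and 13.0%, and CANNTG, the E-box that TCF4 binds, in 42.3% and 66.1%. The forkhead word TGTTTAC, a FOXP site, was in 0 of 26 windows and in 3.06% of all windows. The GC box was in 11 of the 13 windows upstream of the gene and in 6 of the other 13. Each GC box also holds a CG dinucleotide, so these counts overlap. A match is only a run of letters in the window. The 27025 genes were not limited to those tested here, whereas every member was among the genes tested. The part of expression in the CG and motif contrasts was not tested.

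Windows of 3 members are shown because they differ in CG content and belong to genes whose values are described below. They run 5′ to 3′ on the strand of the gene, and capitals mark CG dinucleotides. *Reln* (chr5:22344706-22344955, minus strand) had 37, *Tbl1xr1* (chr3:22076402-22076651, plus strand) had 15 and *Myt1l* (chr12:29528134-29528383, plus strand), 1 of 3 windows with fewer than 10, had 3. *Myt1l* had 5 RefSeq windows, of which only the most upstream was counted and is shown, and *Reln* and *Tbl1xr1* had 1 each.
Reln: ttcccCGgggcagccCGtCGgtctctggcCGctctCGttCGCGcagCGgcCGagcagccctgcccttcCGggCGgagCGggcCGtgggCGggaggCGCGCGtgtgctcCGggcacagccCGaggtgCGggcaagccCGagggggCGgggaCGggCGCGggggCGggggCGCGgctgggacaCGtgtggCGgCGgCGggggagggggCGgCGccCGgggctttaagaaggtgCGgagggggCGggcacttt
Tbl1xr1: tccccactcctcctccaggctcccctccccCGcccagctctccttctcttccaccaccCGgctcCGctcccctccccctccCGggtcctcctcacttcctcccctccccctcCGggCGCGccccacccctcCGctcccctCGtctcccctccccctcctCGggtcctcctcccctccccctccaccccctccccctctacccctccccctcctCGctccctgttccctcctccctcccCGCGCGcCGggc
Myt1l: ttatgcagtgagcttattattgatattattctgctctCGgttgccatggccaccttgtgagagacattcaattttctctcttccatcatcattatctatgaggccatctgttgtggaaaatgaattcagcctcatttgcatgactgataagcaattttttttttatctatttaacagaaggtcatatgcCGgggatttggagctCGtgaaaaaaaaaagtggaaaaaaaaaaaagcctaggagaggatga

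All 34 genes were expressed, and all passed the minimum mean of 10 normalised counts. Mean levels over the 10 libraries ran from 117 normalised counts for *Katnal2*, a katanin relative that severs microtubules, to 26879 for *Ank2*, the ankyrin-B scaffold. Per kilobase of transcript, the highest levels were 1879 for *Ank2*, 1585 for *Ank3*, 1493 for *Tcf4*, 1315 for *Myt1l* and 1119.7 for *Usp7*. The lowest per kilobase were *Katnal2* at 57.4, *Tbl1xr1* at 262 and *Nipbl* at 280.3. The members varied little between WT mice, with a median coefficient of variation of 5.13%, beside 8.40% over all genes tested. In HT it was 12.4%, beside 12.2% over all genes. Without HT 4 it was 5.61%, beside 7.99%.

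None of the 34 genes passed the test between HT and WT. With all 10 libraries, 0 of 34 had an adjusted p under 0.05 (limma-trend with Benjamini-Hochberg adjustment over 17020 genes, of which 0 passed, 0%), and the smallest adjusted p was 1.00. A single member, *Tbl1xr1*, had an unadjusted p under 0.05, against 3.41% of all genes tested. In 0 of 34 did the groups separate without overlap, against 0.629% of all genes. Of the log2 fold changes, 12 were above 0 and 22 below, and they ran from -0.28 to 0.11 with a median of -0.021, beside -0.0074 over all genes. The 95% limma interval lay within ±0.5 on the log2 scale for 33 of 34 genes, and reached -0.54 for *Tbl1xr1*. In the plot of fold changes most intervals are narrower without HT 4, as the median standard error was 0.079 with all libraries and 0.050 without HT 4, and it was smaller without HT 4 for 31 of 34.

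**Figure D1:**
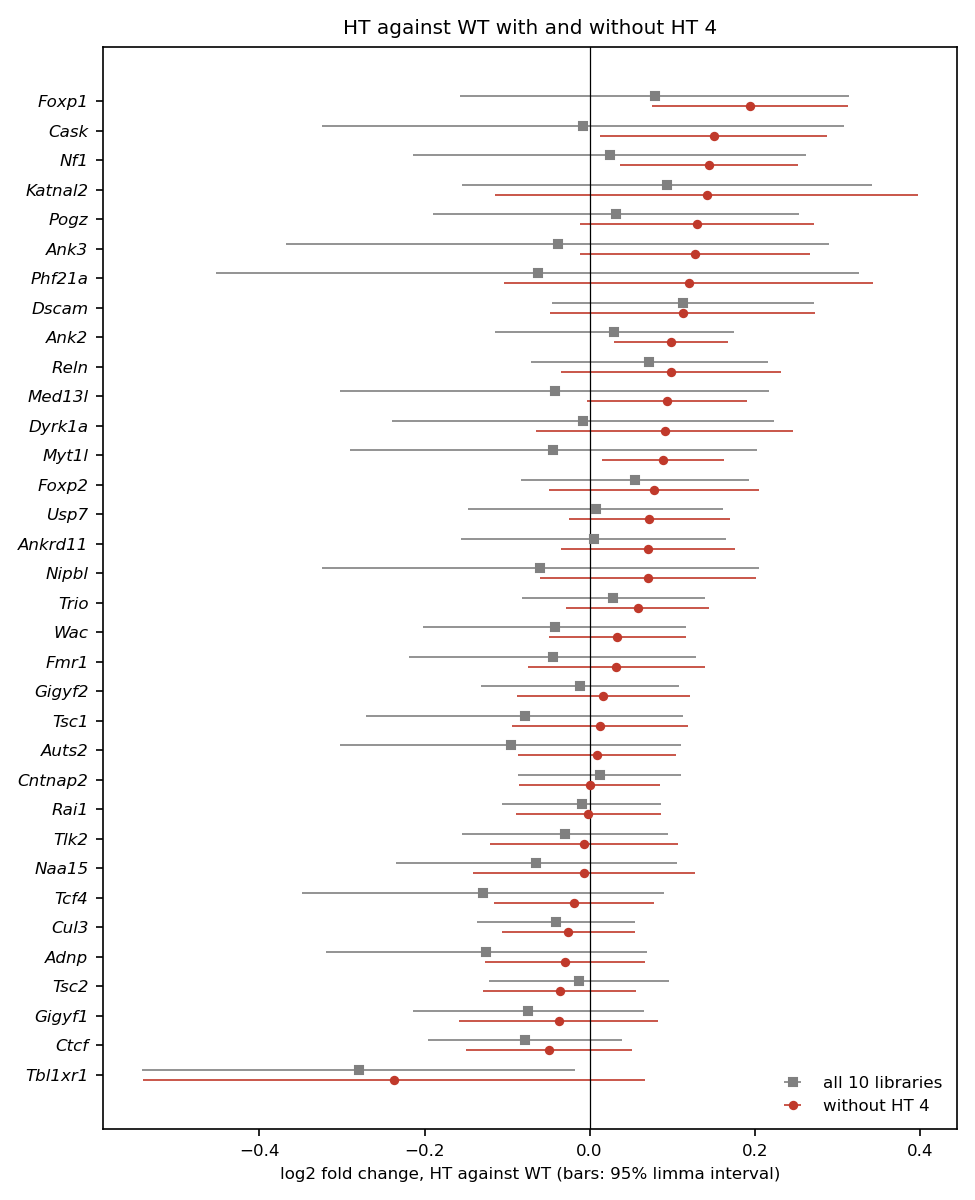
Log2 fold change of HT against WT for each member (x axis), with grey squares for all 10 libraries, red circles without HT 4 and bars for the 95% limma interval. With all libraries the values run from -0.28 (*Tbl1xr1*) to 0.11 (*Dscam*), and without HT 4 most points shift to the right, to a median of 0.065.

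HT 4 was low for most members. It was the lowest of the 10 libraries for 26 of the 34 genes, against 27.5% of all genes tested, and the highest for 1 (*Cntnap2*), against 24.7%. Its value was below the mean of the other 9 libraries for 31 of 34, with a median difference of -0.32 on the log2 scale, beside 0.0072 over all genes. The deepest was *Phf21a* at -0.85, followed by *Ank3* at -0.76 and *Cask* at -0.71. The 3 genes above 0 were *Tsc2* at 0.10, *Dscam* at 0.066 and *Cntnap2* at 0.060. In the other 9 libraries the median deviation of the members from their gene means lay between -0.023 (WT 2) and 0.12 (HT 1), and HT 1 was the highest library for 11 genes.

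**Figure D2:**
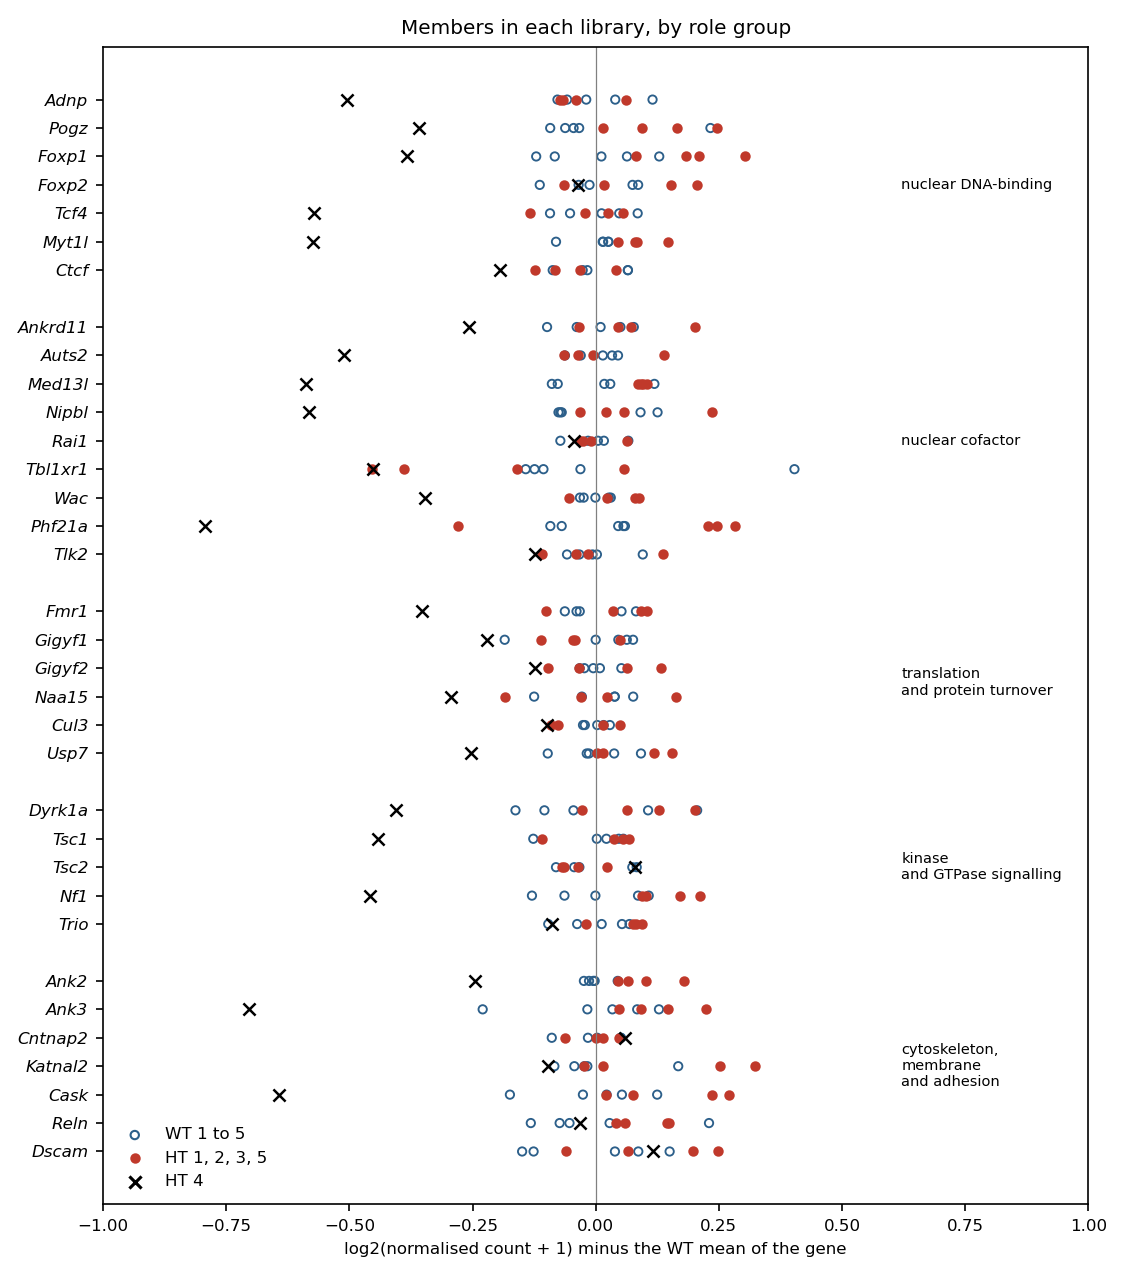
Log2(normalised count + 1) minus the WT mean of the gene (x axis) for each member (rows, in 5 role groups), with open blue circles for WT, filled red circles for HT 1, 2, 3 and 5, and a black cross for HT 4. HT 4 is the lowest point for 26 of 34 genes and lies among the others for genes such as *Rai1*, *Dscam* and *Reln*.

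Transcript length moved with the values of HT 4. The decile of genes with the longest transcripts had a median difference of -0.37 between HT 4 and the other 9 libraries, and the shortest decile 0.30. Across the 34 genes the Spearman correlation of this difference with transcript length was -0.16, and across the 84 partner genes described below it was -0.52, all values resting on the single library HT 4. *Reln* and *Trio*, with 11699 and 11495 bases, had differences of -0.075 and -0.11, while *Nf1*, with 11917 bases, had -0.52. The deepest, in *Phf21a*, went with 6332 bases. With a trend on length and GC content taken out of each library, the median difference of the members in HT 4 was -0.13. Single members then ran from -0.62 (*Phf21a*) to 0.52 (*Cntnap2*), and *Ank2* went from -0.29 to 0.29. By role group the median ran from -0.16 for the nuclear cofactors to 0.29 for the cytoskeleton, membrane and adhesion genes. HT 4 was also the lowest library for the summed excitatory neuron markers (18925, against 22566 to 25671 in the other 9) and the highest for those of 4 other classes. These were progenitors and radial glia (12169, against 7494 to 11152), the oligodendrocyte lineage (11938, against 9108 to 10803), cerebellar granule cells (10790.5, against 6319 to 9979) and Cajal-Retzius cells (6769, against 5159 to 6758). Single markers did not all follow their sums. *Slc17a6* was above its mean over all libraries in HT 4 (5025 against 4465). *Mki67* (1526 against 1639), *Ndnf* (849 against 1247), *Trp73* (155 against 174) and *Cspg4* (782 against 795) were below theirs. The other markers of these classes lay on the side of their sum, with *Vim* at 5928 against 4040. The part of RNA quality, dissection or cell makeup in these values was not tested.

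**Figure D3:**
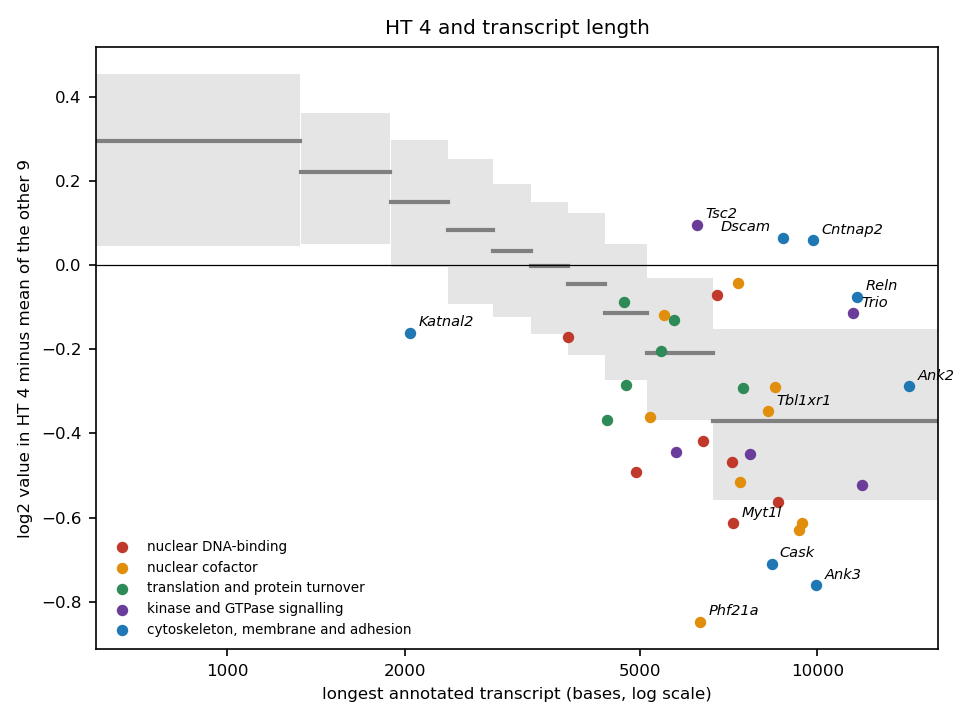
Log2 value in HT 4 minus the mean of the other 9 libraries (y axis) against the longest annotated transcript in bases (x axis, log scale). Coloured points are the 34 members by role group, and grey lines and bands give the median and the interquartile range of all genes in each decile of length, from 0.30 in the shortest decile to -0.37 in the longest.

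Without HT 4 the direction of the list turned. Of the 34 log2 fold changes, 24 were then above 0 and 10 below, 12 genes changed sign, and the median was 0.065, beside -0.00081 over all genes and 0.054 over the decile of genes with the longest transcripts. Still 0 of 34 passed the threshold, which 2 of the 17020 genes did (0.0118%), *Arid1b* and 1 gene outside the list, and the smallest adjusted p among the members was 0.446. An unadjusted p under 0.05 was found for 5 of 34, namely *Foxp1*, *Ank2*, *Nf1*, *Myt1l* and *Cask*, all with higher values in HT, against 8.4% of all genes in either direction and 4.69% with higher values in HT. The groups did not overlap for 2 of them, *Ank2* and *Myt1l*, against 2.96% of all genes in either direction and 1.75% with higher values in HT. With the length and GC trend also removed, the median was 0.0094, 19 of 34 were above 0, and *Foxp1* alone kept an unadjusted p under 0.05, against 7.94% of all genes.

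**Figure D4:**
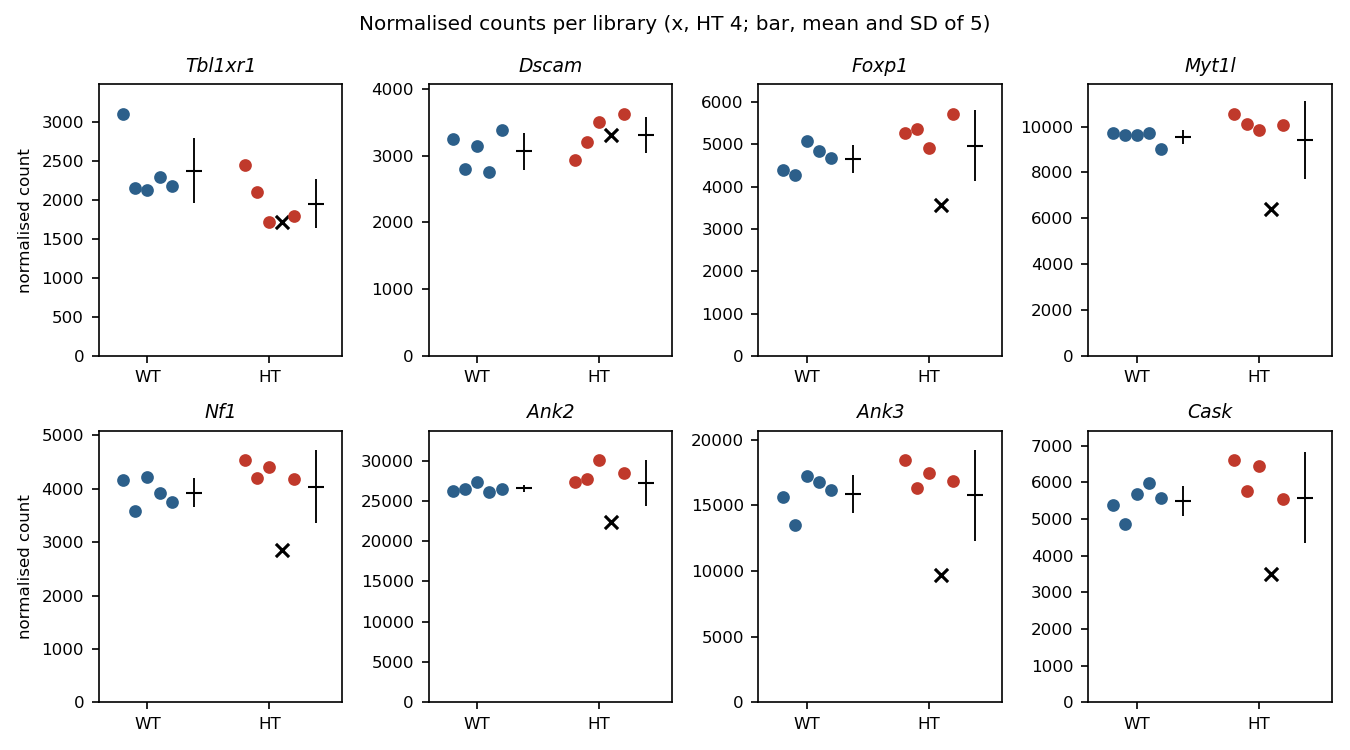
Normalised counts (y axis, from 0) of 8 members in WT (blue) and HT (red) mice, 1 point per library, with a cross for HT 4 and a bar for the mean and SD of 5. HT 4 lies below every other library for *Foxp1*, *Myt1l*, *Nf1*, *Ank2*, *Ank3* and *Cask*, and within the range of the others for *Tbl1xr1* and *Dscam*.

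The genes of the 7 DNA-binding proteins had a median log2 fold change of -0.044 with all libraries and 3 above 0, and 0.078 with 4 above 0 without HT 4. HT 4 was the lowest library for 6 of the 7. *Foxp1* (ENSMUSG00000030067; chromosome 6, 98925338 to 99522721) had normalised counts of 4387, 4274, 5082, 4856 and 4684 in WT 1 to WT 5 and 5274, 5375, 4918, 3565 and 5731 in HT 1 to HT 5. FOXP1 is a forkhead repressor of striatal and cortical neurons. HT 1, HT 2 and HT 5 were above every WT library, HT 3 lay within the WT range and HT 4 was the lowest of all. The gene had an HT mean of 4972 ± 839 against a WT mean of 4656 ± 332 (SD, n = 5), with a log2 fold change of 0.079 ± 0.11 (SE). Without HT 4 it was 0.19 ± 0.055 (limma p = 0.00347, adjusted p = 0.446, exact permutation p = 0.0317), and 0.15 after the trend on length and GC was also taken out (limma p = 0.0114, adjusted p = 0.510). Its adjusted p ranged from 0.446 to 1.00 over all alternatives. The relative *Foxp2*, known for its part in speech, had an HT mean of 2367 ± 197 against a WT mean of 2275 ± 129 (SD, n = 5) and a log2 fold change of 0.055 ± 0.064 (SE), or 0.078 ± 0.060 without HT 4. The ratio of *Foxp1* to *Foxp2* was 1.61 in HT 4 and 1.94 to 2.49 in the other 9.

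*Myt1l* (ENSMUSG00000061911; chromosome 12, 29528384 to 29923213) had normalised counts of 9713, 9636, 9642, 9712 and 9023 in WT 1 to WT 5 and 10563, 10107, 9851, 6409 and 10078 in HT 1 to HT 5. MYT1L is a zinc finger protein that represses non-neuronal genes in neurons. HT 1, HT 2, HT 3 and HT 5 were above all 5 WT libraries, 4 of which lay within 9636 to 9713, and HT 4 was far below them. The log2 fold change was -0.044 ± 0.11 (SE) with all libraries and 0.089 ± 0.034 without HT 4 (limma p = 0.0218, adjusted p = 0.529, exact permutation p = 0.00794). That exact p is the lowest value possible with 4 libraries against 5, and with the trend removed too the log2 fold change was 0.050 (limma adjusted p = 0.695).

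*Tcf4* had normalised counts of 13403, 12466, 14102, 13741 and 12822 in WT 1 to WT 5 and 13822, 13085, 12112, 8944 and 13532 in HT 1 to HT 5. TCF4, the E-box factor lost in Pitt-Hopkins syndrome, was the highest of this group per kilobase. The groups overlapped, with HT 4 lowest, and the log2 fold change was -0.13 ± 0.10 (SE) with all libraries and -0.019 ± 0.045 without HT 4. *Adnp* had normalised counts of 4939.6, 5074, 5286, 5571 and 4873 in WT 1 to WT 5 and 5365, 4909, 4888, 3624 and 4999 in HT 1 to HT 5. ADNP, which works with CHD4 and HP1 proteins at heterochromatin, showed the same order, with HT 4 at the bottom of overlapping groups and log2 fold changes of -0.12 ± 0.090 (SE) and, without HT 4, -0.030 ± 0.045.

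*Ctcf* had normalised counts of 2482, 2589, 2759, 2606 and 2759 in WT 1 to WT 5 and 2579.5, 2713, 2489, 2306 and 2420.1 in HT 1 to HT 5. CTCF, the insulator protein that stops cohesin at loop ends, overlapped between the groups, with HT 4 lowest and WT 3 and WT 5 highest. Its log2 fold change was -0.078 ± 0.055 (SE) (limma p = 0.175, exact permutation p = 0.143) and -0.050 ± 0.047 without HT 4. *Pogz* had normalised counts of 3027, 2929, 3051, 3669.9 and 2991 in WT 1 to WT 5 and 3503, 3332, 3705, 2433 and 3154 in HT 1 to HT 5. POGZ, an HP1-binding zinc finger protein, had WT 4 and HT 3 as its highest libraries and HT 4 as its lowest, with log2 fold changes of 0.032 ± 0.10 (SE) and, without HT 4, 0.13 ± 0.066 (limma p = 0.0686, exact permutation p = 0.143).

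Among the 9 nuclear cofactors, 8 had a log2 fold change below 0 with all libraries (median -0.042), but 6 were above 0 without HT 4 (median 0.034). *Tbl1xr1* had the most negative value of all 34 genes under either setting. *Tbl1xr1* (ENSMUSG00000027630; chromosome 3, 22076652 to 22216594) had normalised counts of 3102, 2152, 2125, 2295 and 2179 in WT 1 to WT 5 and 2439.9, 2099.5, 1711, 1714 and 1789.6 in HT 1 to HT 5. TBL1XR1 is the exchange subunit of the NCoR and SMRT corepressors. WT 1 was the highest library by a wide margin, the other 4 WT libraries lay between 2125 and 2295, and HT 2, HT 3, HT 4 and HT 5 were below all of them while HT 1 was above. The gene had an HT mean of 1951 ± 316 against a WT mean of 2371 ± 414 (SD, n = 5), with a log2 fold change of -0.28 ± 0.12 (SE) (limma p = 0.0386, adjusted p = 1.00, exact permutation p = 0.0873). It was -0.24 ± 0.14 without HT 4 (limma p = 0.113, exact permutation p = 0.198), -0.18 without WT 1 (limma adjusted p = 0.999) and -0.36 without HT 1 (limma adjusted p = 0.956). It is a close relative of *Tbl1x*, so reads that the 2 genes share may have been split between them.

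*Med13l* had normalised counts of 2817, 2638, 3023, 2841 and 2617 in WT 1 to WT 5 and 2989.7, 2975, 2966, 1851 and 2953 in HT 1 to HT 5. MED13L joins the kinase module to the Mediator complex. The other 4 HT libraries lay within 2953 to 2989.7, inside the WT range, and HT 4 was far below. The log2 fold change was -0.042 ± 0.12 (SE) with all libraries and 0.094 ± 0.045 without HT 4 (limma p = 0.0568, exact permutation p = 0.0952). *Auts2* had normalised counts of 4179, 4311, 4404, 4367 and 4087 in WT 1 to WT 5 and 4701, 4163, 4251, 2994 and 4082 in HT 1 to HT 5. AUTS2, a partner of a variant Polycomb complex, had overlapping groups with HT 1 highest and HT 4 lowest, and log2 fold changes of -0.10 ± 0.10 (SE) and, without HT 4, 0.0084 ± 0.045.

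*Wac* had normalised counts of 4143, 3978, 4155, 4066 and 3999 in WT 1 to WT 5 and 4131, 4324, 4297, 3201 and 3915 in HT 1 to HT 5. WAC, which helps RNF20 and RNF40 to ubiquitinate histone H2B, was the highest cofactor per kilobase. Its groups overlapped, with HT 4 alone below 3915, and its log2 fold change was -0.042 ± 0.074 (SE), or 0.034 ± 0.039 without HT 4. The other 5 cofactors also overlapped between the groups. They were *Ankrd11*, an HDAC-binding protein, *Nipbl*, which loads cohesin, *Rai1*, the Smith-Magenis syndrome gene, *Phf21a*, a reader in the LSD1 corepressor, and *Tlk2*, a chromatin assembly kinase. Their log2 fold changes ran from -0.063 (*Phf21a*) to 0.0053 (*Ankrd11*) with all libraries and from -0.0068 (*Tlk2*) to 0.12 (*Phf21a*) without HT 4. *Phf21a* was the least even of the 34 in HT, with 1144 in HT 4, 1635 in HT 5 and 2324 to 2416 in the other 3, against 1862 to 2068 in WT.

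The 6 genes of translation and protein turnover had the role-group median nearest to 0 without HT 4, a log2 fold change of 0.0048 (3 above 0) and a range of -0.037 to 0.072. With all libraries the median was -0.043 with 1 gene above 0, and HT 4 was the lowest library for all 6. *Usp7* had normalised counts of 5423, 4939, 5218, 5234 and 5632 in WT 1 to WT 5 and 5736, 5293, 5882, 4434 and 5337 in HT 1 to HT 5. USP7, a deubiquitinase and the highest of this group per kilobase, overlapped between the groups, with a log2 fold change of 0.0073 ± 0.071 (SE), or 0.072 ± 0.045 without HT 4. *Gigyf1* had normalised counts of 2219, 1891, 2246, 2266 and 2149.6 in WT 1 to WT 5 and 2225, 2082, 1989, 1845 and 2089 in HT 1 to HT 5. GIGYF1, which represses translation at the mRNA cap, overlapped too, with HT 4 and WT 2 lowest and a log2 fold change of -0.074 ± 0.065 (SE), or -0.037 ± 0.056 without HT 4. Its ratio to the paralogue *Gigyf2* was 0.912 ± 0.0463 in the HT libraries against 0.953 ± 0.0612 in WT (SD, n = 5 each, exact permutation p = 0.246). *Fmr1*, the fragile X gene on the X chromosome, had an HT mean of 2582 ± 322 against a WT mean of 2647 ± 117 (SD, n = 5) and a log2 fold change of -0.045 ± 0.080 (SE), or 0.032 ± 0.050 without HT 4. *Cul3*, the scaffold of a ubiquitin ligase, was among the steadiest genes, with an HT mean of 5162 ± 245 against a WT mean of 5305 ± 87.1 (SD, n = 5) and a log2 fold change of -0.041 ± 0.044 (SE), or -0.026 ± 0.038 without HT 4. *Naa15*, the ribosome anchor of the NatA acetyltransferase, and *Gigyf2* had log2 fold changes of -0.064 ± 0.079 (SE) and -0.011 ± 0.056 (SE), and without HT 4 -0.0069 ± 0.063 and 0.017 ± 0.049.

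The 5 genes of kinase and GTPase signalling had a median log2 fold change of -0.0083 with all libraries and 0.058 without HT 4, with 2 and 4 genes above 0. *Nf1* (ENSMUSG00000020716; chromosome 11, 79339693 to 79581612) had normalised counts of 4159, 3582, 4222, 3916 and 3749.5 in WT 1 to WT 5 and 4537, 4204, 4412, 2854 and 4185 in HT 1 to HT 5. Neurofibromin, the product of *Nf1*, switches off RAS. HT 1 and HT 3 were above every WT library, HT 2 and HT 5 lay within the WT range and HT 4 was below all. The log2 fold change was 0.024 ± 0.11 (SE) with all libraries and 0.14 ± 0.050 without HT 4 (limma p = 0.0120, adjusted p = 0.472, exact permutation p = 0.0556), and 0.062 after the trend on length and GC was also taken out (limma adjusted p = 0.705). *Trio* had normalised counts of 7129, 7593, 7379, 6845 and 7674 in WT 1 to WT 5 and 7218, 7717, 7748, 6882 and 7805 in HT 1 to HT 5. TRIO, an exchange factor for RAC1 and the highest of the group per kilobase, overlapped between the groups, with WT 4 and HT 4 lowest and a log2 fold change of 0.029 ± 0.051 (SE), or 0.058 ± 0.041 without HT 4.

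*Tsc1* and *Tsc2* encode the subunits of 1 complex that holds mTORC1 in check. Their log2 fold changes were -0.078 ± 0.089 (SE) and -0.013 ± 0.051 (SE), and without HT 4 0.012 ± 0.050 and -0.036 ± 0.043. In HT 4 they diverged, with *Tsc1* the lowest of 10 libraries (1937, against 2411 to 2758) and *Tsc2* among the highest (4124, against 3689 to 4133). The ratio of *Tsc1* to *Tsc2* was 0.470 in HT 4 and 0.587 to 0.742 in the other 9, and between the groups it was 0.654 ± 0.114 in the HT libraries against 0.677 ± 0.0584 in WT (SD, n = 5 each, exact permutation p = 0.722). *Tsc2* lies on chromosome 17, as *Arid1b* does. *Dyrk1a*, a kinase gene of the Down syndrome region, had an HT mean of 3191 ± 485 against a WT mean of 3191 ± 343 (SD, n = 5) and a log2 fold change of -0.0083 ± 0.11 (SE), or 0.091 ± 0.072 without HT 4.

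The 7 genes of the cytoskeleton, membrane and adhesion had the highest median log2 fold change of the role groups, 0.030 with 5 genes above 0 and, without HT 4, 0.11 with 7 above 0, although 0 of the 7 passed the test. This group also had the longest transcripts, with a median of 9827 bases. With the length and GC trend removed, its median log2 fold change was 0.061, both with all libraries and without HT 4. In each case 6 of the 7 were above 0. *Ank2* (ENSMUSG00000032826; chromosome 3, 126921612 to 127499350) had normalised counts of 26285, 26442, 27367, 26096 and 26494 in WT 1 to WT 5 and 27387, 27763, 30060.4, 22404 and 28496 in HT 1 to HT 5. Ankyrin-B, the product of *Ank2*, carries membrane proteins along axons. HT 1, HT 2, HT 3 and HT 5 were above all WT libraries, HT 1 by a narrow margin over WT 3, and HT 4 was below all. The log2 fold change was 0.030 ± 0.067 (SE) with all libraries and 0.10 ± 0.032 without HT 4 (limma p = 0.00829, adjusted p = 0.448, exact permutation p = 0.0159). After the trend on length and GC was also taken out it was 0.0024 (limma adjusted p = 0.995).

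*Ank3* had normalised counts of 15601, 13464, 17255, 16734 and 16160.2 in WT 1 to WT 5 and 18436, 16316, 17485, 9690.3 and 16813 in HT 1 to HT 5. Ankyrin-G, the product of *Ank3*, builds the axon initial segment. HT 4 was below every other library, and the remaining HT and WT libraries overlapped. The log2 fold change was -0.039 ± 0.15 (SE), or 0.13 ± 0.064 without HT 4 (limma p = 0.0694, exact permutation p = 0.143). The ratio of *Ank3* to *Ank2* was 0.433 in HT 4 and 0.509 to 0.673 in the other 9. *Cask* (ENSMUSG00000031012; chromosome X, 13517080 to 13851367) had normalised counts of 5384, 4858, 5688, 5977 and 5567 in WT 1 to WT 5 and 6609, 5775, 6457, 3512 and 5561 in HT 1 to HT 5. CASK is a presynaptic scaffold encoded on the X chromosome. HT 1 and HT 3 were its highest libraries and HT 4 its lowest, with log2 fold changes of -0.0081 ± 0.15 (SE) and, without HT 4, 0.15 ± 0.064 (limma p = 0.0341, adjusted p = 0.562, exact permutation p = 0.119).

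*Dscam* (ENSMUSG00000050272; chromosome 16, 96590840 to 97170752) had normalised counts of 3242, 2798, 3137, 2753 and 3388 in WT 1 to WT 5 and 2927, 3198, 3499, 3309 and 3628 in HT 1 to HT 5. DSCAM is an adhesion protein of neurite self-avoidance. It had the highest log2 fold change of the 34 with all libraries, 0.11 ± 0.073 (SE), yet its groups overlapped over most of their range (limma p = 0.146, exact permutation p = 0.190), and HT 4 did not stand apart, and the value without it was 0.11 ± 0.074. *Reln* had normalised counts of 8269.8, 8612, 9239, 8733 and 10627 in WT 1 to WT 5 and 9442, 10046, 10016, 8866 and 9319.6 in HT 1 to HT 5. Reelin, the secreted protein that guides the layering of the cortex, comes mainly from Cajal-Retzius cells and cerebellar granule cells at this age. WT 5 was its highest library and WT 1 its lowest, with log2 fold changes of 0.072 ± 0.067 (SE) and, without HT 4, 0.10 ± 0.062. Beside it, the summed Cajal-Retzius markers ran from 5474 to 6769 in HT and 5159 to 6198 in WT, and the cerebellar granule markers from 6319 to 10790.5 and 7944 to 9979. *Cntnap2*, an axonal adhesion gene and the longest gene body of the 34, had an HT mean of 4250.4 ± 140.3 against a WT mean of 4216 ± 167 (SD, n = 5) and a log2 fold change of 0.012 ± 0.046 (SE), or 0.00013 ± 0.040 without HT 4. *Katnal2*, the lowest of the 34, had an HT mean of 121 ± 15.7 against a WT mean of 113 ± 7.96 (SD, n = 5) and a log2 fold change of 0.094 ± 0.12 (SE), or 0.14 ± 0.12 without HT 4.

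A list of 84 partners and relatives of these genes was read from the same fit. With all libraries 0 of 84 passed the test, 1 had an unadjusted p under 0.05, against 3.41% of all genes, and 27 were above 0 and 57 below, with a median log2 fold change of -0.025. Without HT 4, 0 passed, 8 had an unadjusted p under 0.05 (6 higher in HT and 2 lower), against 8.4% of all genes, 46 were above 0, and the median was 0.0051. *St18* (ENSMUSG00000033740; chromosome 1, 6487231 to 6860940) had normalised counts of 561, 391, 397, 452 and 427 in WT 1 to WT 5 and 337, 359.6, 332, 336 and 261 in HT 1 to HT 5. ST18 belongs to the same zinc finger family as MYT1L and is a factor of striatal and other inhibitory neurons. Every HT library was below every WT library. The log2 fold change was -0.45 ± 0.11 (SE) (limma p = 0.00157, adjusted p = 1.00, exact permutation p = 0.00794) and -0.46 ± 0.12 without HT 4 (adjusted p = 0.423), and its adjusted p ranged from 0.389 to 1.00 over the alternatives, so it did not pass the threshold under any of them. The 6 general inhibitory neuron markers listed gave summed levels of 13839.6 to 15596 in HT and 13632 to 14452 in WT.

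Of the other partners, *Tcf12* pairs with TCF4 and *Cntn2* is the contactin that binds CNTNAP2. *Tcf12* had normalised counts of 2499, 2441, 2476, 2678 and 2256 in WT 1 to WT 5 and 2417, 2223, 2462, 2125 and 1978 in HT 1 to HT 5. The groups overlapped, with HT 5 lowest and WT 4 highest, and the log2 fold change was -0.14 ± 0.068 (SE) (limma p = 0.0549, exact permutation p = 0.0556), or -0.12 ± 0.065 without HT 4. *Cntn2* had normalised counts of 5944, 5760.4, 6802, 6480.4 and 6601 in WT 1 to WT 5 and 6277, 5589, 5945, 4292 and 6399 in HT 1 to HT 5. Its groups overlapped too, with HT 4 lowest, and the log2 fold change was -0.16 ± 0.10 (SE), or -0.061 ± 0.054 without HT 4. *Cyfip2* had normalised counts of 10348, 9351, 10353, 10216 and 9705 in WT 1 to WT 5 and 10877, 10463, 10772, 7542 and 10859 in HT 1 to HT 5. CYFIP2 binds FMRP and the WAVE actin complex. HT 1, HT 2, HT 3 and HT 5 were above all WT libraries and HT 4 was the lowest, with log2 fold changes of 0.0031 ± 0.091 (SE) and, without HT 4, 0.11 ± 0.037 (limma p = 0.0125, adjusted p = 0.476, exact permutation p = 0.0238). *Lin7a* had normalised counts of 361, 307, 379.8, 372 and 324 in WT 1 to WT 5 and 456, 415, 417, 213 and 375 in HT 1 to HT 5. LIN7A joins CASK in a synaptic scaffold. HT 4 was its lowest library, HT 5 lay within the WT range and HT 1, HT 2 and HT 3 were above it, with log2 fold changes of 0.063 ± 0.17 (SE) and, without HT 4, 0.25 ± 0.087 (limma p = 0.0107, adjusted p = 0.465, exact permutation p = 0.0317).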

How the data were processed

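Poly-A mRNA of 10 whole brains (5 HT, 5 WT) was sequenced with a stranded kit. Per the study's methods, the authors quantified reads with Salmon against GRCm38, imported gene estimates with tximport and normalised them in DESeq2. The submitters' processing notes list Salmon 1.1.0, DESeq2 1.30.1 and R 4.1.1. The deposited signal values are estimated reads divided by a size factor per library. They are not whole numbers, so no count test was run. The annotation release and the authors' filter on low genes are not given in the sources used here.

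Groups came from the sample labels. Log2(value + 1) was fitted for genotype with limma-trend and the robust option (R 4.3.3, limma 3.58.1), two-sided, for the 17020 genes with a mean of at least 10, with Benjamini-Hochberg adjustment over them and a threshold of 0.05. The workflow was tested on simulated data. Fold changes on this scale understate changes of low genes. Single genes also had a two-sided exact permutation test over 252 assignments of libraries (126 without HT 4). For the trend removal, a lowess curve (span 0.3) on transcript length and GC content was subtracted in each library. Symbols, positions and lengths are from GENCODE M21 (GRCm38), promoters from RefSeq. The totals of 27243506 to 29032442 normalised counts per library are sums after division by the size factor, so they do not show read depth. Precision was taken from the spread between mice, whose litters the labels do not give.

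The members, partner list and markers were chosen with earlier results of these data known. Values per library are given for the 8 members with the smallest p with all libraries, the 8 with the smallest p without HT 4, the highest per kilobase in each role group, and, of the partners, the 3 with the smallest p under each setting. The alternatives left out each library, changed the filter or the pseudocount, or used quantile normalisation, sample weights, no robust option, trend removal or a replicate block.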

Additional observations from a re-analysis of the deposited data

Results flagged for a closer look

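In 12 groups of 5 libraries, 1 library lay far from the other 4, by its gap to the nearest of them as a share of the whole range of the group (above 0.71, Dixon's 95% critical value for 5). The check covered 80 groups, over the genes given with values and *Arid1b*. Independent groups would give about 1 in 20, or 4, by chance. That figure is no test here, because the groups share the same 10 libraries and the partners were chosen by p. HT 4 was also the lowest library for 27.5% of all genes tested and the highest for 24.7%. The share of flagged groups over all genes was not counted. In 7 of the 12 it was HT 4 that lay lowest: the share was 0.967 for *Med13l*, 0.876 for *Cyfip2*, 0.829 for *Myt1l*, 0.791 for *Nf1*, 0.758 for *Ank3*, 0.735 for *Arid1b* and 0.726 for *Adnp*. In the other 5 another library stood apart. WT 5 was lowest for *Myt1l* (0.888), and HT 5 was lowest for *St18* (0.721). The highest libraries that stood apart were WT 4 for *Pogz* (0.836), WT 1 for *Tbl1xr1* (0.826) and WT 2 for *Katnal2* (0.751).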

How the results depend on the processing

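A total of 20 alternatives was run, and 0 of 34 members and 0 of 84 partners passed the threshold under any of them. Of all genes tested, 0 passed with all libraries, 2 without HT 4, 2 with sample weights, 1 with the length and GC trend removed, 2 with the trend removed and HT 4 left out, and 2 with quantile normalisation and HT 4 left out, the last chosen after seeing the data; leaving out 1 library gave 0 to 2. Members at an unadjusted p under 0.05 numbered 1 with all libraries (3.41% of all genes), 4 with sample weights (7.52%), 2 with quantile normalisation and HT 4 left out (7.63%), and 0 to 5 when 1 library was left out (2.63% to 8.4%), with 5 without HT 4 (8.4%) and 0 without HT 3, HT 5, WT 1 or WT 4 (2.88%, 2.7%, 2.97% and 2.71%). Their median log2 fold change ran from -0.053 to 0.065 when 1 library was left out. Of the 34, 12 kept their direction under every alternative and 22 changed it under at least 1, 20 of them when a library was left out and 11 when that library was not HT 4; the cause was not tested. With sample weights, log2 fold changes turned for *Ank3* (0.084), *Cask* (0.11), *Dyrk1a* (0.047), *Fmr1* (0.028), *Gigyf2* (0.010), *Med13l* (0.060), *Myt1l* (0.056), *Naa15* (0.00062), *Nipbl* (0.032), *Phf21a* (0.10), *Wac* (0.022). With length and GC trend removed and HT 4 left out, log2 fold changes turned for *Ank3* (0.061), *Cask* (0.10), *Cntnap2* (-0.067), *Dyrk1a* (0.070), *Fmr1* (0.015), *Med13l* (0.038), *Myt1l* (0.050), *Nipbl* (0.0051), *Phf21a* (0.095), *Trio* (-0.015), *Wac* (0.014). With quantile normalisation and HT 4 left out, log2 fold changes turned for *Ank3* (0.11), *Cask* (0.12), *Cntnap2* (-0.024), *Dyrk1a* (0.071), *Fmr1* (0.017), *Med13l* (0.074), *Myt1l* (0.060), *Nipbl* (0.056), *Phf21a* (0.10), *Wac* (0.0074). With length and GC trend removed, log2 fold changes turned for *Cask* (0.023), *Dyrk1a* (0.015), *Gigyf2* (0.012), *Rai1* (0.0036), *Tsc2* (0.0082). With quantile normalisation, log2 fold changes turned for *Cyfip2* (-0.00068). When 1 library was left out, those that turned ranged as follows: *Ank2* -0.0075 to 0.10, *Ank3* -0.10 to 0.13, *Ankrd11* -0.044 to 0.071, *Auts2* -0.15 to 0.0084, *Cask* -0.078 to 0.15, *Cntnap2* -0.010 to 0.031, *Cyfip2* -0.027 to 0.11, *Dyrk1a* -0.061 to 0.091, *Fmr1* -0.082 to 0.032, *Gigyf2* -0.047 to 0.017, *Lin7a* -0.019 to 0.25, *Med13l* -0.079 to 0.094, *Myt1l* -0.092 to 0.089, *Nf1* -0.022 to 0.14, *Nipbl* -0.13 to 0.071, *Phf21a* -0.15 to 0.12, *Pogz* -0.021 to 0.13, *Rai1* -0.028 to 0.0067, *Tsc1* -0.11 to 0.012, *Tsc2* -0.036 to 0.0078, *Usp7* -0.030 to 0.072, *Wac* -0.075 to 0.034.

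HT and WT libraries share replicate numbers. The deviations of same-numbered libraries correlated at 0.0911, 0.0843, 0.0815, -0.104 and 0.0926, with no pair above 0.1. For 4 of the 5 HT libraries the WT library of the same number gave the highest correlation. The labels do not say that the numbers pair the mice, and the main fit did not pair them. Whether the numbers mark a shared litter or batch was not tested. With the replicate number as a block, 0 genes and 0 members passed, 1 member had an unadjusted p under 0.05 (3.28% of all genes), and the median log2 fold change of the members was -0.021. Counting error was not modelled, and precision rests on 5 mice per group.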

Other observations

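Some cell type markers that were listed as a check had values apart between the groups, although 0 of 72 passed the limma test. *Ttr*, the transthyretin gene of the choroid plexus, had an HT mean of 8118 ± 1190.3 against a WT mean of 11181 ± 1530.2 (SD, n = 5), with a log2 fold change of -0.46 ± 0.11, or -0.50 without HT 4 (SE, exact permutation p = 0.00794, limma adjusted p = 1.00, and 0.446 to 1.00 over all alternatives). *Slc17a6*, the vesicular glutamate transporter of subcortical excitatory neurons, had an HT mean of 4694 ± 189 against a WT mean of 4236 ± 70.7 (SD, n = 5), and its groups did not overlap (exact permutation p = 0.00794, limma adjusted p = 1.00, and 0.446 to 1.00 over all alternatives). The progenitor genes *Nes* and *Mki67* had log2 fold changes of -0.18 ± 0.074 and -0.33 ± 0.15 (exact permutation p = 0.0635 and 0.103, limma adjusted p = 1.00 for each), and without HT 4 -0.21 and -0.35. These genes were chosen after their values were seen.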
